A study of Drosophila melanogaster with 48 samples.

Results

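The change in fat body transcripts across lights-on was measured in fly abdomens sampled just after and just before the start of the light phase. The 16 libraries taken at ZT02 and ZT04 (light) and at ZT22 and ZT24 (dark) were chosen by their sampling time alone, out of 48 libraries in all. ZT is zeitgeber time, in hours after lights-on, so that ZT24 is the moment the lights come on. The 8 light libraries and the 8 dark libraries each held 2 replicates of every time on each of 2 diets. One diet was restricted, with 5% sucrose and yeast, and the other was the control diet, with 15%. All flies were mated w1118 females (iso31) that were about 3 days old when they were put on the diet and about 8 days old after 5 days on it, kept at 25 °C under a cycle of 12 h light and 12 h dark. Each library pooled tissue from about 10 flies. The tissue was abdominal fat body attached to the epidermis, with its oenocytes, and the other abdominal organs had been cut away. Replicates are described as biological in the design text.

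The fat body stores fat and glycogen and secretes yolk and immune proteins into the blood, and the oenocytes beside it make the hydrocarbons of the cuticle. Both hold a molecular clock. In it the proteins Clk and cyc activate per, tim, vri and Pdp1, the Per and Tim proteins later shut that activation down, and light acts on the clock through cry, a blue-light receptor whose activation leads to breakdown of the Tim protein. The vri protein represses Clk and the Pdp1 protein activates it. In light and dark cycles tim and per transcripts are known to peak in the evening and early night, and Clk and cry transcripts at the opposite side of the day.

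Total estimated counts ranged from 8862411 to 33485917 in the light libraries and from 7757393 to 28757061 in the dark libraries. Fat body and oenocyte transcripts were abundant on both sides. Yp1, a yolk protein, lay between 18110 and 89059 CPM (counts scaled to a fixed library total) in the light libraries and between 27699 and 78164 CPM in the dark libraries. Cyp4g1, the oenocyte P450 that completes hydrocarbon synthesis, lay between 32648 and 74598 CPM in the light libraries and between 42213 and 89993 CPM in the dark libraries. Ovary transcripts were present in varying amounts, with a mean log2 CPM over 27 markers of 0.43 to 7.16 in the light libraries and 0.30 to 5.38 in the dark libraries. The same mean over 17 gut markers was 0.13 to 4.10 in the light libraries and -0.10 to 3.51 in the dark libraries. The photoreceptor opsin Rh3 did not exceed 0.348 CPM in the light libraries and 1.37 CPM in the dark libraries. In the library labelled Restricted ZT02 replicate 1, 53.8% of counts fell on the 18S and 28S ribosomal RNA rows, which were dropped before any library size was computed, against at most 2.22% in the other light libraries and at most 1.92% in the dark libraries. The library labelled Control ZT02 replicate 1 was the deepest and had the highest tim and vri of the light libraries. It was picked out after the data were seen, and the check for outlying libraries reported at the end did not flag it in either gene. Values with and without it are given below. The columns of the other 3 ZT02 libraries, unlike the remaining 45, are not named as combined sequencing files. In such tissue samples, fewer cells of a type and less RNA per cell cannot be told apart.

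The first question was which genes differed between the hours after and the hours before lights-on on both diets together. No gene passed. Of 9200 genes tested, 0 (0%) had an adjusted p under 0.05 (edgeR quasi-likelihood test with diet and replicate as blocks, Benjamini-Hochberg adjustment), and the smallest adjusted p was 0.319. At an unadjusted p under 0.05 there were 450 genes, or 4.89%, of which 224 (2.43%) were higher and 226 (2.46%) lower in light. DESeq2 on the same libraries called 11 genes (0.12%), 6 higher and 5 lower in light. Fitting all 48 libraries with edgeR called 8 of 10065 genes (0.0795%), 3 higher and 5 lower, and 6 of these 8 were among the 11 of DESeq2. That fit gave each zeitgeber time its own level. Both the model and the libraries that estimate the spread therefore differed from the main fit. In 0 of 9200 genes (0%) did all 8 light libraries lie above all 8 dark libraries, and in 0 (0%) below them. The light mean exceeded the dark mean in each of the 4 series of diet and replicate for 470 genes (5.11%) and fell short of it in each for 652 genes (7.09%). The median log2 change of all genes was 0.02.

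The largest difference among the 8 core clock genes was that of tim. In the light libraries tim was lowest at 33.8, had a median of 85.5 and was highest at 277 CPM, and in the dark libraries it was lowest at 212, had a median of 342 and was highest at 454 CPM. A single light library, Control ZT02 replicate 1 at 277 CPM, reached into the dark range, and the next highest light value was 165 CPM. The mean was 114 ± 81.8 CPM in light and 339 ± 80.5 CPM in dark (SD, n = 8 each), lower in light in 4 of 4 series. The log2 change was -1.59 ± 0.37 (SE, edgeR adjusted p = 0.671). It was -1.58 in DESeq2 (adjusted p = 0.00686) and -1.79 ± 0.17 in edgeR with all 48 libraries (adjusted p = 5.94e-09). Without Control ZT02 replicate 1, which was picked out partly for its tim level, the change was -1.98 with edgeR adjusted p = 0.0576.

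The tim values were also lower at ZT04 than at ZT02 in these libraries, but no change over a single interval passed. At ZT02 tim stood at 165 and 159 CPM in the restricted libraries and at 277 and 96.5 CPM in the control libraries. At ZT04 it stood at 74.5 and 56.0 CPM in the restricted libraries and at 33.8 and 50.7 CPM in the control libraries. All 4 values of ZT04 lay below all 4 values of ZT02. The share of all genes that separate in this way between these times is not given here. The log2 change was -0.46 for ZT24 minus ZT22, -0.71 for ZT02 minus ZT24 and -1.68 for ZT04 minus ZT02 (edgeR adjusted p = 0.692 for the last). With ZT02 left out, an alternative chosen after the data were seen, tim differed between ZT04 and the dark libraries by -2.65 (edgeR adjusted p = 0.00369).

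Of the 8 core clock genes, 0 passed, and 4 had an unadjusted p under 0.05 against 4.89% of all genes, with tim, vri and Pdp1 lower and cyc higher in light. The median log2 change of the 8 was -0.20, against 0.02 for all genes. vri, the repressor of Clk, ranged from 19.9 to 65.7 CPM in light, with a median of 36.8 CPM, and from 51.1 to 81.2 CPM in dark, with a median of 57.4 CPM. Control ZT02 replicate 1 was again the only light library within the dark range. The log2 change of vri was -0.67 ± 0.19 (edgeR adjusted p = 0.915), and -0.69 ± 0.15 with all 48 libraries (edgeR adjusted p = 0.0698). With 48 libraries but Control ZT02 replicate 1, which was picked out partly for its vri level, it was -0.87 (edgeR adjusted p = 0.000741). Pdp1 averaged 96.5 ± 26.2 CPM in light and 127 ± 41.1 CPM in dark (SD, n = 8 each), a change of -0.39 ± 0.17, and the groups overlapped.

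per, the partner of tim, showed a smaller difference on a low level. It averaged 8.17 ± 2.11 CPM in light and 10.2 ± 2.42 CPM in dark (SD, n = 8 each), a log2 change of -0.30 ± 0.15. The receptor gene cry averaged 174 ± 68.0 CPM in light and 128 ± 33.4 CPM in dark (SD, n = 8 each), a change of 0.37 ± 0.19, and was higher in light in 3 of 4 series. Both groups of cry overlapped, with the lowest light value, 79.6 CPM, under the lowest dark value, 81.7 CPM. The log2 difference was 0.18 ± 0.07 for cyc, 0.08 ± 0.18 for Clk and -0.11 ± 0.08 for cwo, a repressor of clock targets. Among the alternatives run, Clk was the only clock gene whose direction turned, to -0.20 in the replicate 1 libraries alone. Of 16 clock kinases and other regulators, 0 had an unadjusted p under 0.05, against 4.89% of all genes, and their median was 0.10.

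**Figure D1:**
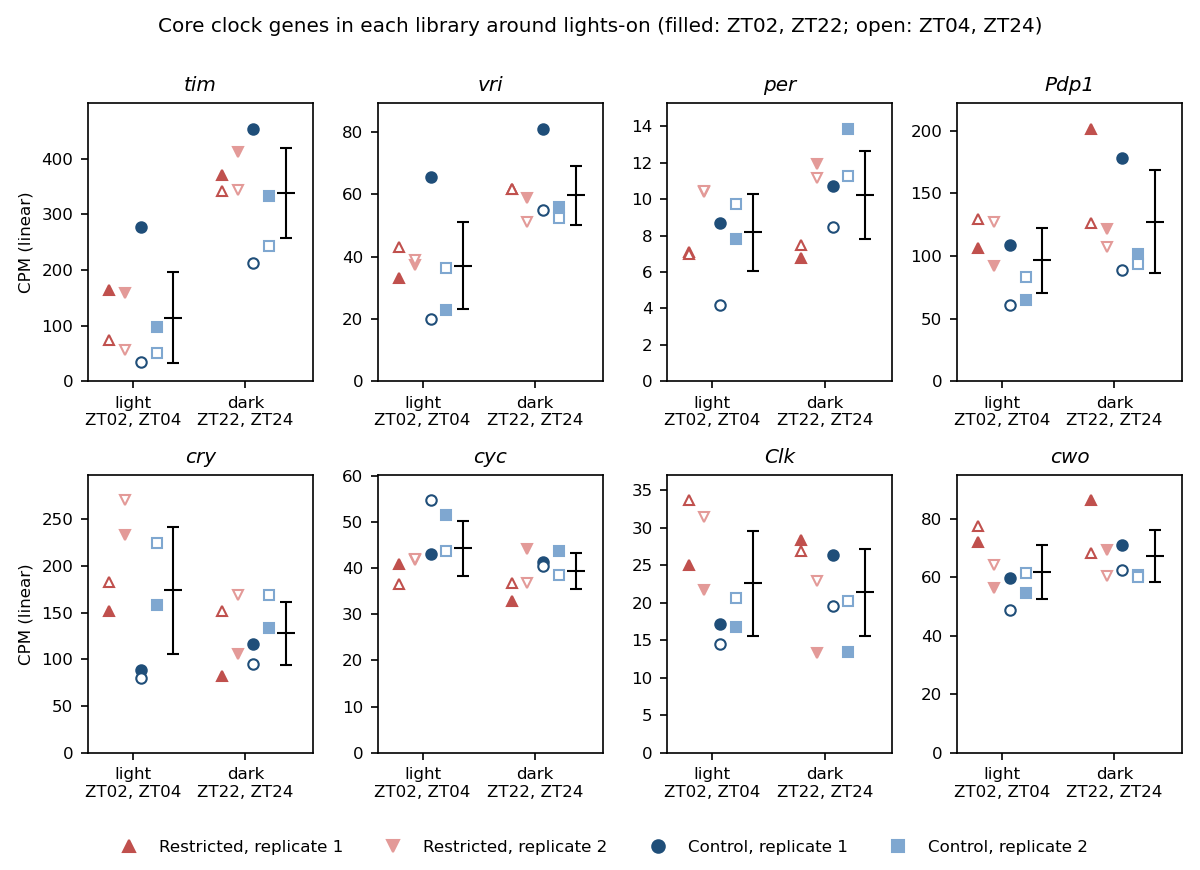
Levels of the 8 core clock genes in CPM, each point a library, light libraries on the left and dark libraries on the right of each panel, with the mean and SD of 8 libraries in black. The tim points of light lie at 165 CPM or lower but for Control ZT02 replicate 1 at 277 CPM, and those of dark at 212 CPM or higher.

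Outside the clock, the genes that DESeq2 or the fit of all 48 libraries called are named here after their values were seen. CG17560, which the second also called, is described with its family. CG7220 ranged from 45.2 to 92.4 CPM in light, with a median of 64.3 CPM, and from 28.7 to 52.7 CPM in dark, with a median of 40.5 CPM. Its groups overlapped, and it was higher in light in 4 of 4 series. The log2 change was 0.73 ± 0.13 (edgeR adjusted p = 0.319), and DESeq2 gave adjusted p = 0.000475. With all 48 libraries the change was 0.72 ± 0.12 (edgeR adjusted p = 0.00338), and without Control ZT02 replicate 1 CG7220 was the 1 gene that edgeR called on these times (0.82, adjusted p = 0.0262).

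CG12024 ranged from 34.2 to 53.0 CPM in light and from 28.6 to 34.9 CPM in dark. A pair of libraries kept its groups from separating, Control ZT02 replicate 1 at 34.2 CPM and the dark library Restricted ZT22 replicate 1 at 34.9 CPM. The change of CG12024 was 0.47 ± 0.09 (edgeR adjusted p = 0.319, DESeq2 adjusted p = 0.000475). Adk3 averaged 50.7 ± 9.28 CPM in light and 36.4 ± 8.21 CPM in dark (SD, n = 8 each), a change of 0.49 ± 0.10. Fatp3, a fatty acid transport protein, averaged 33.6 ± 7.35 CPM in light and 23.3 ± 3.55 CPM in dark (SD, n = 8 each), a change of 0.53 ± 0.12. DESeq2 also called CG3764, at 0.48 ± 0.11 in edgeR, and CG7656, at 0.30 ± 0.08. All of these were higher in light in 4 of 4 series.

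Lower in light in 4 of 4 series were nebu, CG3376 and CG6845, which DESeq2 called. nebu ranged from 350 to 660 CPM in light, with a median of 556 CPM, and from 632 to 1012 CPM in dark, with a median of 745 CPM. Only Control ZT02 replicate 1, at 660 CPM, reached into the dark range of nebu. Its change was -0.57 ± 0.13 (edgeR adjusted p = 0.653, DESeq2 adjusted p = 0.00654). CG3376 averaged 167 ± 62.7 CPM in light and 257 ± 48.8 CPM in dark (SD, n = 8 each), a change of -0.64 ± 0.16. CG3036 was called with all 48 libraries and not by DESeq2, with 199 ± 77.5 CPM in light and 353 ± 93.0 CPM in dark (SD, n = 8 each) and a change of -0.80 ± 0.22.

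**Figure D2:**
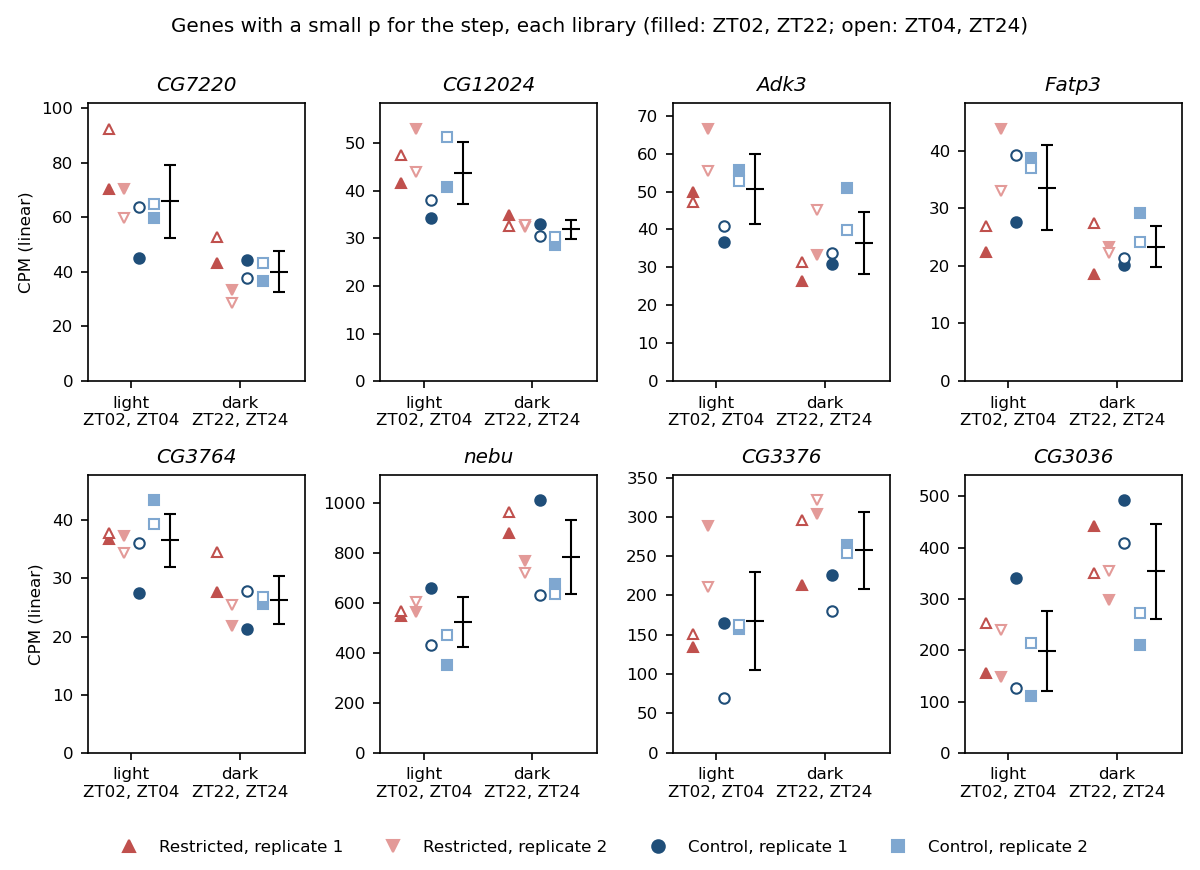
Levels in CPM of 8 genes that DESeq2 or the fit of all 48 libraries called, each point a library, with the mean and SD of 8 libraries in black. CG7220, CG12024, Adk3, Fatp3 and CG3764 have higher means in light, nebu, CG3376 and CG3036 lower ones, and the light and dark points of every gene overlap.

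Enzymes of sugar use and of fat synthesis were next. All gene lists used here were chosen with earlier results of these data known. A list's share set against that of all genes is therefore descriptive only. Of 21 genes of glycolysis and sugar storage, 0 passed, 2 were higher and 2 lower in light at an unadjusted p under 0.05, and their median log2 change was 0.14. At that threshold 2.43% of all genes were higher and 2.46% lower. Pyruvate kinase (PyK) averaged 898 ± 348 CPM in light and 672 ± 177 CPM in dark (SD, n = 8 each), a change of 0.38 ± 0.14. PyK was higher in light in 3 of 4 series. Its step was 0.64 ± 0.18 on the restricted diet and 0.11 ± 0.18 on the control diet, and the difference did not pass (edgeR adjusted p = 0.456). The other 3 under that threshold were Gapdh2 at 0.33 ± 0.13, Hex-C at -0.42 ± 0.16, and lactate dehydrogenase (Ldh) at -0.58 ± 0.19. Ldh ranged from 11.3 to 53.9 CPM in light and from 19.5 to 69.5 CPM in dark, so that the groups overlapped, and it was lower in light in 4 of 4 series.

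Of 18 lipid synthesis genes, 0 passed, 3 were higher and 1 lower in light at an unadjusted p under 0.05, with a median of 0.15. Of all genes, 2.43% were higher and 2.46% lower. Agpat2, an acyltransferase that makes phosphatidic acid, ranged from 27.1 to 96.8 CPM in light and from 10.7 to 39.8 CPM in dark. Its change of 1.08 ± 0.28 was higher in light in 4 of 4 series (edgeR adjusted p = 0.915, DESeq2 adjusted p = 0.0534). The difference was 0.47 ± 0.20 for malic enzyme (Men), a source of NADPH, and 0.45 ± 0.19 for ATPCL, which makes cytosolic acetyl-CoA. Each was higher in light in 3 of 4 series. On the restricted diet the step was 0.73 ± 0.27 for Men and 0.72 ± 0.26 for ATPCL. On the control diet it was 0.21 ± 0.27 for Men and 0.18 ± 0.26 for ATPCL. The difference between diets did not pass (edgeR adjusted p = 0.526 for Men and 0.505 for ATPCL). mdy, the acyltransferase of the last step to triglyceride, averaged 130 ± 32.6 CPM in light and 198 ± 56.1 CPM in dark (SD, n = 8 each), a change of -0.59 ± 0.17.

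The pentose phosphate enzymes Zw and Pgd, which also yield NADPH and were picked after their values were seen, had larger values of the step on the restricted diet. Zw stood at 172, 176, 240 and 372 CPM in the 4 restricted light libraries. In the 4 restricted dark libraries it stood at 79.6, 121, 123 and 121 CPM. These groups did not overlap, and the share of all genes that separate in this way within 1 diet is not given here. In the control libraries Zw ranged from 83.8 to 263 CPM in light and from 95.8 to 136 CPM in dark. The step of Zw was 1.08 ± 0.24 on the restricted diet and 0.20 ± 0.23 on the control diet, and that of Pgd was 0.99 ± 0.25 on the restricted diet and 0.10 ± 0.25 on the control diet. The difference between diets did not pass for either gene (edgeR adjusted p = 0.452 for Zw and for Pgd).

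**Figure D3:**
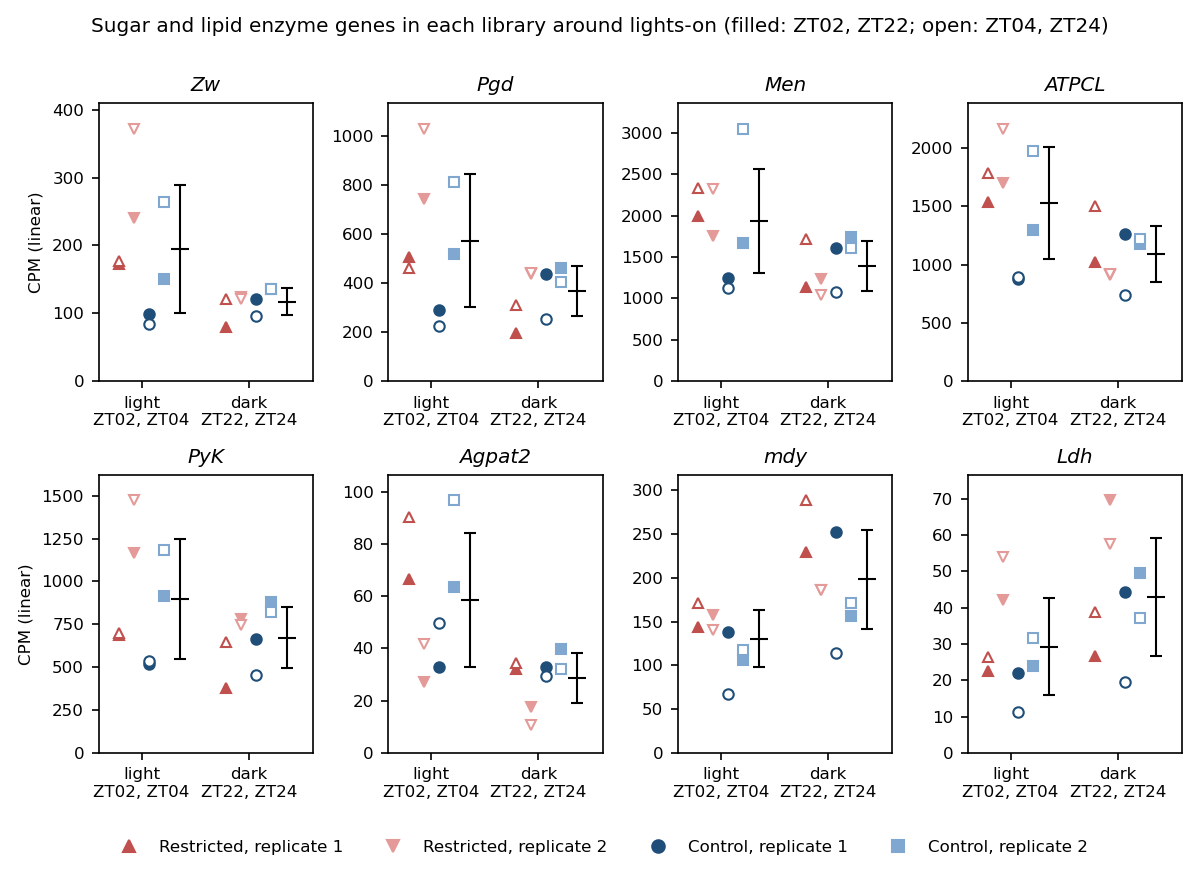
Levels in CPM of 8 genes of sugar and lipid metabolism, each point a library, with the mean and SD of 8 libraries in black. The restricted light points of Zw, at 172 CPM and above, lie over the restricted dark points, at 123 CPM and below, while those of the control diet overlap.

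Fatty acyl-CoA reductases, which make fatty alcohols, had 3 of 13 tested members higher in light at an unadjusted p under 0.05 and 0 lower, against 2.43% higher and 2.46% lower of all genes, with a median of 0.16. None of them passed adjustment. CG17560 ranged from 834 to 2718 CPM in light and from 744 to 1613 CPM in dark, a change of 0.68 ± 0.21. Its step was 0.97 ± 0.28 on the restricted diet and 0.38 ± 0.28 on the control diet. CG17562 ranged from 160 to 449 CPM in light and from 151 to 315 CPM in dark, a change of 0.50 ± 0.14. Its step was 0.75 ± 0.19 on the restricted diet and 0.25 ± 0.19 on the control diet. The difference between diets did not pass (edgeR adjusted p = 0.506 for CG17560 and 0.464 for CG17562). Each was higher in light in 3 of 4 series. CG14893, the third, averaged 2.32 ± 1.22 CPM in light and 1.09 ± 0.60 CPM in dark (SD, n = 8 each), and was also higher in 3 of 4 series. Related sequences in this family can share reads that an estimated count divides between them, so single values are uncertain. Of 16 fatty acid elongases, 0 had a higher and 2 a lower value in light at an unadjusted p under 0.05, among them CG17821 with 4.88 ± 4.04 CPM in light and 12.5 ± 6.07 CPM in dark (SD, n = 8 each).

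Among fasting, hormone and defence genes none passed adjustment, and some members had an unadjusted p under 0.05. Of 19 nutrient and fasting genes, 1 was higher and 2 lower in light at that threshold, against 2.43% higher and 2.46% lower of all genes. Pepck2, a gene for the gluconeogenic enzyme PEPCK, averaged 9.76 ± 4.60 CPM in light and 18.4 ± 5.87 CPM in dark (SD, n = 8 each), a change of -0.90 ± 0.26. Ilp6, the insulin-like peptide of the fat body, averaged 29.6 ± 11.8 CPM in light and 47.2 ± 13.9 CPM in dark (SD, n = 8 each), a change of -0.67 ± 0.21. It was the only one of 17 genes for secreted signals with an unadjusted p under 0.05 (5.88%, against 4.89% of all genes).

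Of 8 juvenile hormone genes, 0 passed adjustment, and 2 were lower in light at an unadjusted p under 0.05, against 2.46% of all genes. Jhe, the esterase that degrades the hormone, had a difference of -0.94 ± 0.28 on a low level, 1.77 ± 0.90 CPM in light and 3.43 ± 1.37 CPM in dark (SD, n = 8 each). Kr-h1, the transcription factor that the hormone induces, had one of -0.42 ± 0.14. Of 49 glutathione and UDP transferases, 0 passed adjustment, and 4 were higher and 2 lower at an unadjusted p under 0.05, against 2.43% higher and 2.46% lower of all genes. Among the 4 was GstD1 at 222 ± 37.8 CPM in light and 161 ± 35.6 CPM in dark (SD, n = 8 each).

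The antimicrobial peptide gene DptA had the widest change of those named, 2.48 ± 0.88, and 1 library set it. DptA stood at 146 CPM in Restricted ZT02 replicate 1, the library rich in ribosomal RNA, while its median was 1.30 CPM in light and 0.97 CPM in dark. Without that library the change was 0.77 (edgeR adjusted p = 0.958). Among 22 antimicrobial and bomanin peptide genes, 1 was higher and 1 lower in light at an unadjusted p under 0.05, with a median of 0.00. Of all genes, 2.43% were higher and 2.46% lower. At that threshold 0 members were found among 8 photolyase and excision repair genes, 10 phototransduction genes, 21 heat shock and chaperone genes and 73 cytosolic ribosomal protein genes.

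The next question was whether the step differed between the diets. For the difference of the steps, restricted minus control, 0 of 9200 genes (0%) passed in edgeR and 0 in DESeq2. The smallest edgeR adjusted p was 0.452, and 1005 genes (10.9%) had an unadjusted p under 0.05. That number hung on single libraries. With each library left out in turn it ranged from 438 (without Control ZT04 replicate 1) to 1735 (without Control ZT02 replicate 1). By the rule for named genes, Cap-D2, a condensin subunit, stepped by -1.09 ± 0.41 on the restricted diet and by 1.38 ± 0.41 on the control diet, and CG8202 by -0.25 ± 0.12 on the restricted diet and by 0.45 ± 0.12 on the control diet. The step of tim was -1.69 ± 0.54 on the restricted diet and -1.48 ± 0.54 on the control diet. Of the 48 lists examined, 31 had a median step above 0 on the restricted diet and below 0 on the control diet. The median of all genes was 0.00 on the restricted diet and -0.02 on the control diet. Control medians lay below 0 in 44 lists, and some lists share members. The share of all genes with opposite signs on the 2 diets is not given here, so the count of lists is descriptive only.

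Ovary and gut transcripts had the mean levels given next, and on each diet the light and dark libraries overlapped in both. The differences between these means were not tested. The mean log2 CPM of the ovary markers was 2.11 in light and 2.13 in dark on the restricted diet, and 5.38 in light and 4.54 in dark on the control diet. For the gut markers it was 1.84 in light and 2.33 in dark on the restricted diet, and 1.05 in light and 1.55 in dark on the control diet. With both scores as covariates, 0 genes passed and 723 had an unadjusted p under 0.05. How far the other organs' RNA enters single genes was not tested.

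A further comparison asked whether the change was concentrated in the interval that contains lights-on. The change from ZT24 to ZT02 was set against the mean of the changes from ZT22 to ZT24 and from ZT02 to ZT04, with 4 libraries at each time. Of 9200 genes, 0 (0%) passed in edgeR and 0 in DESeq2, and 57 (0.62%) had an unadjusted p under 0.05 in edgeR. The smallest edgeR adjusted p was 1.00. The genes with the smallest p were mim, an actin regulator, at -0.58 and CG10383 at -0.51 for this difference on the log2 scale. Taken alone, ZT02 minus ZT24 had 94 genes (1.02%) with an unadjusted p under 0.05, ZT24 minus ZT22 had 92 (1%) and ZT04 minus ZT02 had 394 (4.28%), and 0 passed adjustment in each (edgeR).

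The step at lights-on was then set against that at lights-off, which is ZT14 and ZT16 minus ZT10 and ZT12, in a fit of 32 libraries in which the steps share no library. Each time had its own level, as in the fit of all 48 libraries. The steps differed for 7 of 9959 genes (0.0703%, edgeR adjusted p under 0.05), 6 with the larger value at lights-on and 1 with the larger value at lights-off. The step of tim was -1.78 ± 0.19 at lights-on and 0.69 ± 0.19 at lights-off, a difference of -2.47 ± 0.27 (edgeR adjusted p = 2.32e-05). The reductase genes CG17560 and CG17562 had the opposite signs. The step of CG17560 was 0.68 ± 0.14 at lights-on and -1.04 ± 0.15 at lights-off, a difference of 1.72 ± 0.20 (edgeR adjusted p = 5.45e-05). That of CG17562 was 0.53 ± 0.13 at lights-on and -1.02 ± 0.14 at lights-off, a difference of 1.55 ± 0.19 (edgeR adjusted p = 6.19e-05). CG14893, of the same family, had a positive value at both, 1.02 ± 0.41 at lights-on and 0.85 ± 0.44 at lights-off.

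The other 4 genes also had a positive value at lights-on and a negative one at lights-off. At lights-on it was 0.37 ± 0.10 for Orp8 and 0.23 ± 0.13 for Ugt36D1. For Dbct it was 0.14 ± 0.07 and for cry 0.39 ± 0.15. At lights-off it was -0.66 ± 0.10 for Orp8 and -0.85 ± 0.13 for Ugt36D1. For Dbct it was -0.38 ± 0.07 and for cry -0.68 ± 0.15. None of these 4 passed for the lights-on step alone, nor did CG17560 or CG17562 (edgeR adjusted p 0.128 to 0.811). Orp8, of a family of lipid transfer proteins, differed by 1.02 ± 0.14 (edgeR adjusted p = 0.000345), and the UDP-glycosyltransferase Ugt36D1 by 1.08 ± 0.18 (adjusted p = 0.00784). Dbct differed by 0.52 ± 0.10 (edgeR adjusted p = 0.0287) and cry by 1.08 ± 0.21 (adjusted p = 0.0428). Dbct and cry no longer passed without the replicate block (edgeR adjusted p = 0.343 for Dbct and 0.548 for cry). With each of the 32 libraries left out in turn, cry no longer passed in 27 fits and Dbct in 21, and the other 5 passed in all 32. Without the 3 ZT02 libraries not named as combined, 4 genes passed, and Ugt36D1 was not among them (edgeR adjusted p = 0.273).

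Taken one at a time in this fit, the lights-on step called 3 genes (0.0301%) and the lights-off step 17 (0.171%), with 0 called in both. Whether the steps of a given gene differ is answered by the test above and not by these counts. Clk, for example, had a step of 0.08 ± 0.15 at lights-on and of -0.84 ± 0.16 at lights-off (edgeR adjusted p = 0.0156 for lights-off), and the difference did not pass (edgeR adjusted p = 0.168).

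**Figure D4:**
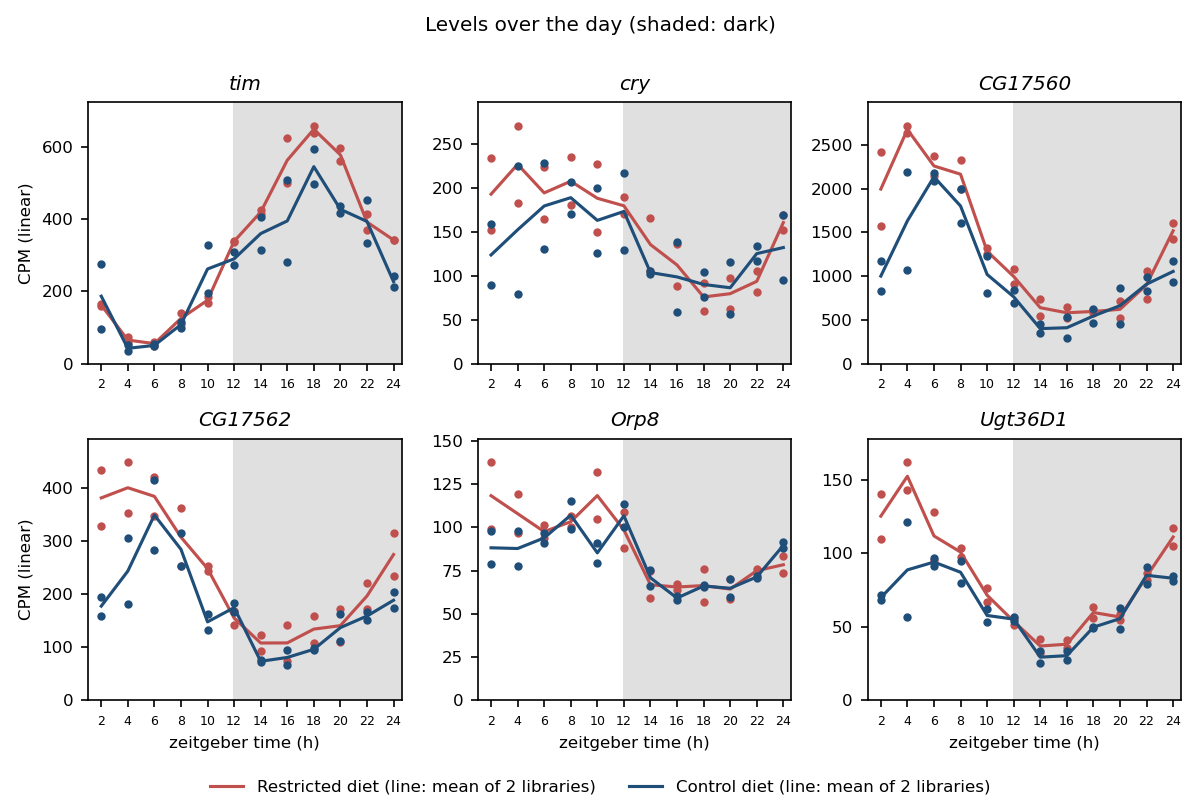
Levels in CPM of 6 of the genes whose steps differed, over 12 zeitgeber times, with points for libraries, lines for the mean of 2 libraries per diet and the dark phase shaded. tim is low at ZT04 and CG17560 is high there, and CG17560 is higher at ZT24 than at ZT22 in the mean of each diet.

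**Figure D5:**
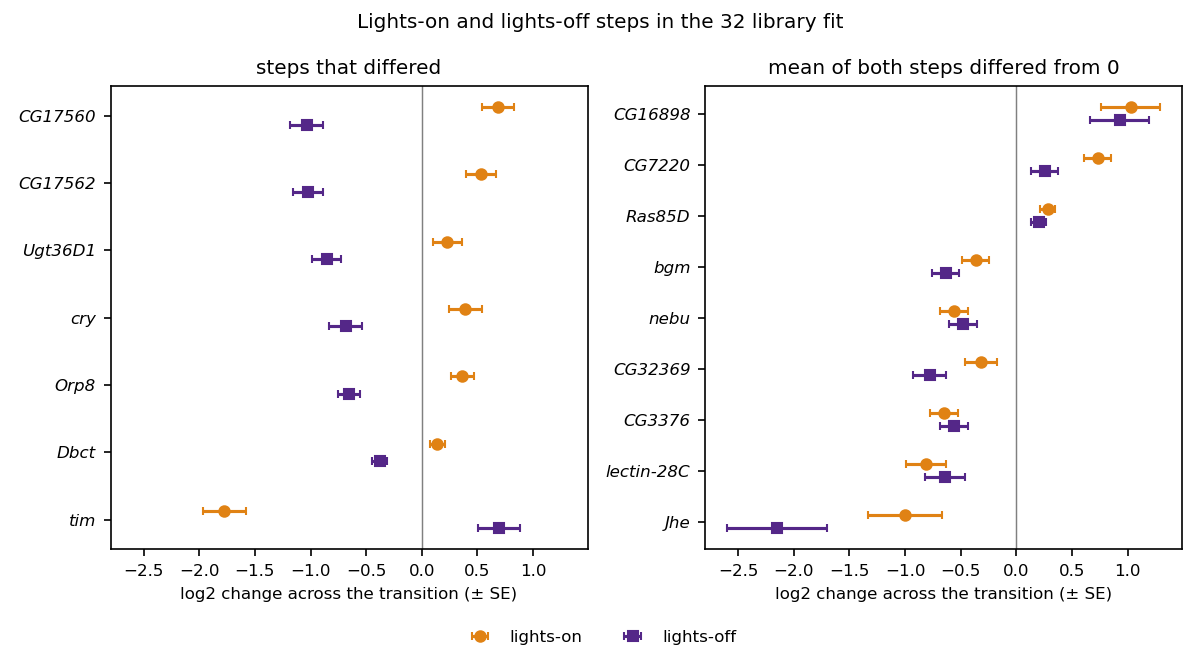
Log2 change with its standard error at lights-on (circles) and lights-off (squares) in the fit of 32 libraries. In the left panel tim is at -1.78 and 0.69 and the other 6 genes have a positive and a negative value, while in the right panel both values of each gene have the same sign.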

How the data were processed

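Per the file headers and labels, the authors deposited estimated counts and TPM per gene for 48 libraries. The submitters' processing notes name kallisto 0.44.0 and FastQC. Not given in the sources used here were annotation, genome build and strand setting. Coordinates and sequences are therefore left out, and overlapping genes cannot be told apart. The estimated counts (87.8% whole within 0.01 in the 16 libraries) were rounded. Of 14205 rows, 154 had no symbol and are counted, not named, and 12 rows of 18S and 28S ribosomal RNA were dropped.

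Genes were kept with filterByExpr (minimum count 10 over groups of diet and phase), scaled with TMM and tested with edgeR 4.0.16 in R 4.3.3 (quasi-likelihood F test, Benjamini-Hochberg over all genes, threshold 0.05). Log2 changes are light minus dark unless stated, with SE. Printed CPM use TMM sizes over 48 libraries. DESeq2 1.42.0, with adjusted p left missing where it gave none, and limma 3.58.1 on log2(TPM + 1) and log2(TPM + 0.1) were alternatives. The members and the 48 gene lists were chosen with earlier results of these data known. Genes were named as follows: those called for the step, all core clock genes, and the called genes, or the 2 with the smallest p, of the other comparisons, which gave 17. A further 33 were chosen after values were seen. The paired libraries of each group differed far beyond sampling noise (chi-square per degree of freedom 71.6 to 241). The tests were also tried on simulated counts with known changes.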

Additional observations from a re-analysis of the deposited data

Results flagged for a closer look

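In 9 of 110 groups of 8 libraries examined, 1 library lay far from the rest, and chance alone does this in about 1 group in 20. The share of 18S and 28S ribosomal RNA was 53.8% in Restricted ZT02 replicate 1, with the nearest light library at 2.22%. The other values are log2 CPM. Control ZT04 replicate 1 was low among the light libraries in per (2.13, nearest 2.85) and in Kr-h1 (4.55, nearest 5.59). Restricted ZT02 replicate 2 was low among them in mim (5.06, nearest 5.71). Restricted ZT22 replicate 1 stood apart among the dark libraries in 3 genes, high in cwo (6.44, nearest 6.15) and Ilp6 (6.30, nearest 5.64) and low in GstD1 (6.44, nearest 7.13). Control ZT22 replicate 1 was high among them in vri (6.35, nearest 5.95), and Control ZT24 replicate 2 was low in CG17821 (1.38, nearest 3.01).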

How the results depend on the processing

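The count of 0 genes for the step became 11 in DESeq2, 8 with all 48 libraries, and 0 to 1 with each library left out in turn (1 without Control ZT02 replicate 1). Alternatives chosen after the data were seen gave 2 genes without both ZT02 replicate 1 libraries, 12 with 48 libraries but Control ZT02 replicate 1, 3 with series blocks and 36 in DESeq2 without that library, and 1 without ZT02. For lights-on against lights-off, the 7 genes became 55 in DESeq2, 5 to 13 with each library left out (13 without Control ZT22 replicate 1) and 4 without the uncombined ZT02 libraries. For the mean of both steps, 10 became 75 in DESeq2 and 7 to 16 with each library left out (16 without Control ZT02 replicate 1). The cause was not tested. Without the replicate block the counts were 0 for the step (321 at an unadjusted p under 0.05), 0 for diet, 0 for the interval of lights-on, 5 for lights-on against lights-off and 7 for the mean. For each diet and time the difference of replicate 2 minus replicate 1 was taken per gene, and these differences were correlated between times. The correlation was above 0.1 for 6 of 6 pairs of times within the restricted diet, 3 of 6 within the control diet and 18 of 28 over both. A replicate difference thus recurred over times on the restricted diet and not throughout the 16 libraries. Clk turned to -0.20 in replicate 1 alone, -0.16 for ZT02 against ZT24 alone and -0.037 without Restricted ZT22 replicate 2 (range -0.037 to 0.16 with each library left out), and Ugt36D1 to -0.040 for ZT02 against ZT24 alone. Of the other values of named genes, 1091 kept side and direction, 53 newly passed and 9 no longer passed, leave-one-out fits aside.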

Other observations

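The lights-on and lights-off steps were also averaged. The mean of the lights-on and lights-off steps, a test added after the data were seen, differed from 0 for 10 of 9959 genes (0.1%, edgeR adjusted p under 0.05), 3 with a positive and 7 with a negative mean, and 9 of them have a symbol. It tests the average and not each step, and 0 genes were called in both steps taken alone. CG3376 had a step of -0.65 ± 0.13 at lights-on and of -0.56 ± 0.13 at lights-off (edgeR adjusted p of the mean = 0.00499), and the mean no longer passed without the replicate block (edgeR adjusted p = 0.0833). nebu had a step of -0.56 ± 0.13 at lights-on and of -0.48 ± 0.13 at lights-off, and the C-type lectin gene lectin-28C of -0.81 ± 0.18 at lights-on and of -0.64 ± 0.18 at lights-off. bgm, an acyl-CoA synthetase of very long chain fatty acids, had a step of -0.37 ± 0.12 at lights-on and of -0.63 ± 0.12 at lights-off, and its mean no longer passed without that block (edgeR adjusted p = 0.592), nor did that of Ras85D (edgeR adjusted p = 0.548). The mean of both steps was -1.58 ± 0.28 for Jhe (edgeR adjusted p = 0.0114). The mean was positive for CG7220, at 0.73 ± 0.12 at lights-on and 0.25 ± 0.12 at lights-off (edgeR adjusted p = 0.728 for lights-off alone), and for CG16898, at 1.03 ± 0.27 at lights-on and 0.93 ± 0.27 at lights-off. CG32369 and Ras85D were the other 2 with a symbol. With each of the 32 libraries left out in turn, Ras85D no longer passed in 22 fits, CG16898 in 16 and CG32369 in 8.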
